A study of Mus musculus with 6 samples.

Results

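The genes described here run the cell division cycle: 38 genes for DNA replication, mitosis, the cyclins and kinases that drive both, and a pair of inhibitors. They were listed by name, and each was read through the probe sets (groups of short array probes that report 1 transcript) that carry that symbol and no other. Where several did, the probe set with the highest mean over the 6 arrays was used. In this way 37 of the 38 genes were measured, among 18193 genes in all, and Ccnb1 had no such probe set and was not analysed here. By role they were 4 genes of the early G1 kinases (Ccnd1, Ccnd2, Ccnd3, Cdk4), 4 of the G1/S switch (Ccne1, Ccne2, Cdk2, E2f1), 10 of S phase, 17 of G2 and mitosis and 2 inhibitors of the cyclin-dependent kinases (Cdkn1a, Cdkn1c). The share of each role among the measured genes was thus uneven, with the inhibitors represented by 2 genes only.

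The series compared wild-type and Lmx1b-null (Lmx1b -/-) mouse embryos of the 129Sv strain at stage E11.5, and asked which genes LMX1B, a LIM homeodomain transcription factor that gives limb mesenchyme its dorsal identity, controls in the hindlimb bud. Each of the 6 arrays carried RNA of 1 pool, made from the proximal 500 µm or so of the 6 hindlimb buds of 3 embryos, with 3 pools of each genotype. The null embryos lack Lmx1b in every tissue, dorsal and ventral mesenchyme were not separated, and a pool averages its embryos. In tissue of this kind fewer cells of a type and less RNA per cell cannot be told apart. Levels are given as log2 RMA values, where 1 unit is a doubling, and a difference is the mean of the null pools minus the mean of the wild-type pools, with the standard error (SE) of a limma fit.

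A dividing cell passes through G1, S phase, G2 and mitosis. D-type cyclins with CDK4 answer growth signals in G1, cyclin E with CDK2 then starts replication, and both act by releasing E2F factors, which switch on the genes for the replication machinery. Mitotic genes come later in the cycle and are held down in G1 by a repressor complex that sits on an element called the CHR, often close to CCAAT boxes bound by NF-Y. CDK inhibitors of the CIP/KIP family brake these kinases and mark cells that leave the cycle, as early muscle and cartilage cells do in the limb bud.

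The promoters of the listed genes are given first, because these letters are what is known to time S phase and mitotic genes apart. RefSeq promoters of the GRCm38.p6 build, each 300 bases long and running from 250 before to 50 after the start of the gene, were at hand for 29 of the 38 genes, Ccnb1 included, in 32 entries. The letters searched, on both strands, were CCAAT, the CHR core TTTGAA, and as E2F-type sites TTGGCGC, with its variants TTCGCGC, then TTCCCGC, and also TTGCCGC, which may overlap each other. The E2F-type letters were found in 7 of 10 S phase promoters, in 3 of 14 mitotic promoters (21.4%) and in 9.57% of all 32851 promoters in the table. The CHR core was found in 10 of 14 mitotic promoters (71.4%), in 1 of 10 S phase promoters and in 17.9% of all promoters. CCAAT was common to both, in 13 of 14 and 9 of 10, against 37.4% of all. None of these was found in the Ccne1, E2f1, Tyms, Birc5, Cdk4 and Cdkn1a entries. The letters TAATTA, a core that many homeodomain proteins bind, were in 0 of the 32 entries and in 5.29% of all. These matches describe letters in a short window and are not evidence of binding in the limb bud.

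Of the sequences below, Mki67, Top2a, Kif11 and Cenpf are 4 of the 6 mitotic genes with the most uneven levels between pools, chosen because they hold a CHR core, Cdk1 and Cdc20 are mitotic genes that stayed level, and Mcm5 and Mcm6 stand for the E2F-type S phase promoters. Each is the stretch just upstream of the annotated start, 5′ to 3′ on the gene's strand, with CCAAT, CHR and E2F-type matches on either strand in capitals.
Mki67, chr7:135716380-135716579, minus strand: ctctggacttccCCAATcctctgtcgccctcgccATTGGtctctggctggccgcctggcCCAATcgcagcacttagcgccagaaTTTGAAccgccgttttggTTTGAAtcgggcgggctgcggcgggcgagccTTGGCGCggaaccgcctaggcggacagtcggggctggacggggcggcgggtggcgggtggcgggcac
Top2a, chr11:99024190-99024429, minus strand: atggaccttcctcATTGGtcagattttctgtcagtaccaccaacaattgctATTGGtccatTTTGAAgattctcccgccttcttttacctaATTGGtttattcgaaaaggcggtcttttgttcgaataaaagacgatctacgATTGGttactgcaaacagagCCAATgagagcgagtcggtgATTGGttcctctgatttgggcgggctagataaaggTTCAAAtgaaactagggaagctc
Kif11, chr19:37376282-37376381, plus strand: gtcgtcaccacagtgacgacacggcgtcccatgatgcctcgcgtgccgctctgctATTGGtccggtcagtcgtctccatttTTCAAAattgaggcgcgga
Cenpf, chr1:189688087-189688226, minus strand: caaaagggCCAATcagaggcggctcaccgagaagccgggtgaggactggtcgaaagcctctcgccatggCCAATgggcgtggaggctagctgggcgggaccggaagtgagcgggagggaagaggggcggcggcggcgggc
Cdk1, chr10:69352913-69353092, minus strand: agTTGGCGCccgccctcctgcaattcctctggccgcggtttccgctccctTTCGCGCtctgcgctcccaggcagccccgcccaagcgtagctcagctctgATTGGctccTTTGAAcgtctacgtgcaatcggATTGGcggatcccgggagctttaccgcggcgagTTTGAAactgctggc
Cdc20, chr4:118437344-118437443, minus strand: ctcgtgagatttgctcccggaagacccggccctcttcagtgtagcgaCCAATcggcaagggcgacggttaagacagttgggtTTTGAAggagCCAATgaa
Mcm5, chr8:75109329-75109508, plus strand: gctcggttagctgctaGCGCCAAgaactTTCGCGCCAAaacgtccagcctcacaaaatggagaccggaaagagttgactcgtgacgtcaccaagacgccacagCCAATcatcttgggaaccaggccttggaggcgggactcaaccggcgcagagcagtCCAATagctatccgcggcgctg
Mcm6, chr1:128359706-128359825, minus strand: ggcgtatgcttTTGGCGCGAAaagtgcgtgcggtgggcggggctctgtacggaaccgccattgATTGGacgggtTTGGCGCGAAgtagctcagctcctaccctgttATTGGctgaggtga

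Upstream of Mki67 lie 3 CCAAT matches, 2 CHR cores and 1 E2F-type site, and upstream of Top2a 6 CCAAT matches and 2 CHR cores. The CHR core of Kif11 starts at position -19 relative to the gene start, downstream of a CCAAT match at -45, and that of Cdc20 at -18. Cenpf has its CHR core at base 3 after the start, outside the stretch shown. The entries of Bub1 and Cenpe hold CCAAT but no CHR core. Mcm6 carries 4 E2F-type matches in the stretch, as a pair of overlapping pairs, and no CHR core. Of the 6 mitotic genes with the most uneven levels, 4 (Mki67, Top2a, Kif11 and Cenpf) hold a CHR core in their entries and Bub1 and Cenpe do not, while the steady Cdk1 and Cdc20 do.

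As a check of the labels, Lmx1b itself read 7.58 to 8.17 in the wild-type pools and 4.23 to 4.62 in the null pools. All 8 markers of limb mesenchyme were measured and bright in every pool (Prrx1 at 11.05 to 11.22), with sums out of the log scale of 10307 to 10789 in wild-type and 9733 to 9898 in null pools, and embryonic globin genes were bright as well (Hbb-y at 13.32 to 13.50), so that blood was part of each pool. The arrays had near-equal distributions, with medians from 4.96 to 4.99. The pools also differed in the Xist level, a transcript made by female cells: it stood at 4.68 and 4.72 in wild-type pools 1 and 3 and at 9.16 to 10.79 in wild-type pool 2 and the 3 null pools.

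No cell cycle gene passed the threshold of an adjusted p under 0.05 between null and wild-type pools. In the limma fit of all 18193 genes, with Benjamini-Hochberg adjustment, 0.104% of genes passed, and of the 37 listed genes 0 did, with adjusted p from 0.411 to 1.00. The unadjusted p was under 0.05 for 2 of the 37, Ccnd2 and Cdkn1a, both higher in null pools, where 9.80% of all genes reached that level, 5.92% as higher and 3.88% as lower. The median difference of the 37 was -0.02 against 0.02 over all genes, with 13 higher and 24 lower, where 57.0% of all genes were higher. At the level of single probe sets, 0 of the 93 that read these genes passed, where 0.0844% of all 45037 did, and 9 of the 93 had an unadjusted p under 0.05, against 9.41% of all.

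**Figure D1:**
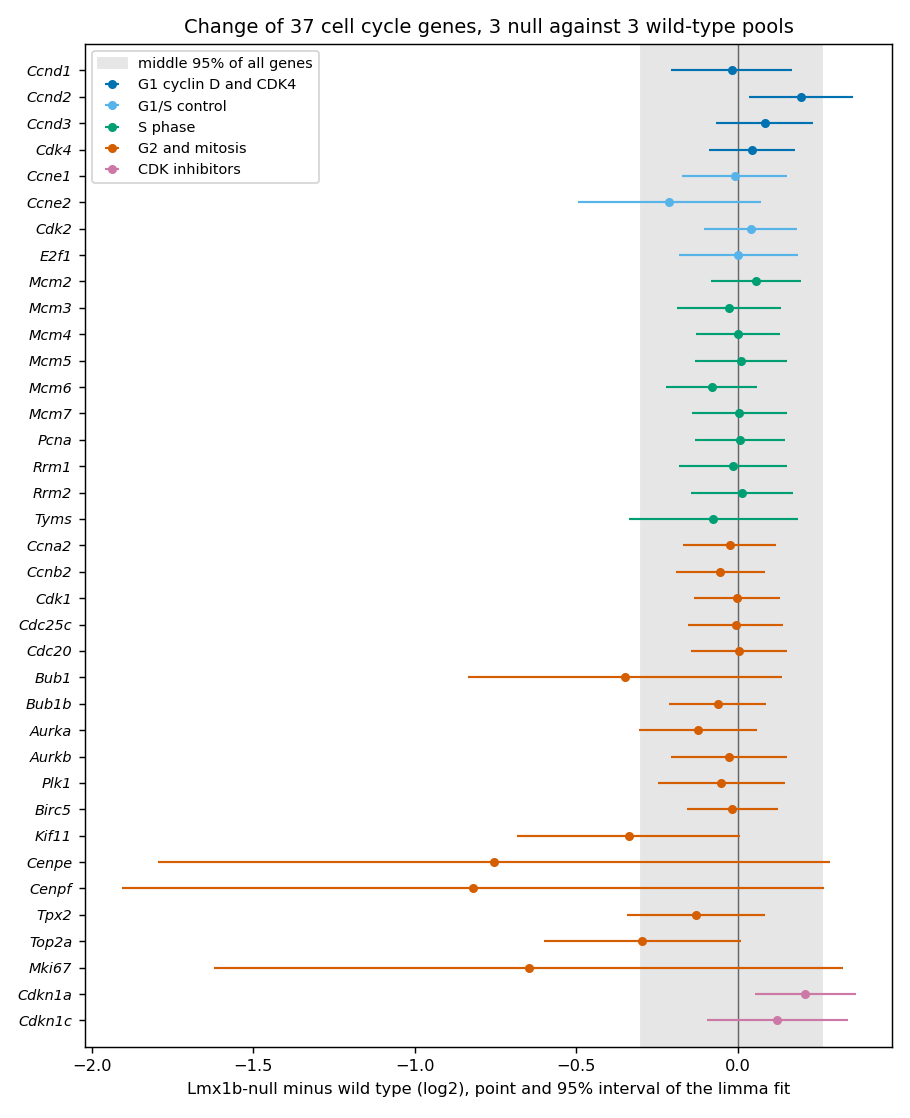
Difference between Lmx1b-null and wild-type pools (log2, horizontal axis) for each of the 37 measured cell cycle genes, as a point with its 95% interval from the limma fit of 3 pools against 3, coloured by role; the grey band holds the middle 95% of all 18193 genes, from -0.30 to 0.26. Most intervals are narrow and cover 0, those of Ccnd2 and Cdkn1a lie just above 0, and those of Cenpe, Cenpf and Mki67 are several times as wide.

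The S phase genes had the smallest median range over the 6 pools of the 5 roles, at 0.15. They encode the 6 subunits of the MCM helicase that opens the DNA (Mcm2 to Mcm7), the sliding clamp of the polymerases (Pcna), and enzymes that supply deoxynucleotides (Rrm1 and Rrm2, the subunits of ribonucleotide reductase, and Tyms, thymidylate synthase). Of the 10 genes, 5 were higher and 5 lower in null pools, the median difference was 0.00 and the largest were -0.08 (Mcm6) and 0.06 (Mcm2). The 95% intervals of all 10 lay between -0.34 and 0.20.

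Values are listed by pool number. Pcna read 12.15, 12.10 and 12.03 in wild-type pools and 12.10, 12.10 and 12.09 in null pools. The null values lay inside the wild-type range, for a difference of 0.00 (SE 0.06, 95% interval -0.13 to 0.14; limma adjusted p = 0.985). Mcm6 read 10.83, 10.84 and 10.73 in wild-type pools and 10.69, 10.73 and 10.72 in null pools. The null values lay at the low end of the wild-type ones and the groups overlapped (difference -0.08, SE 0.06; adjusted p = 0.698). Mcm2 read 10.18, 10.12 and 10.17 against 10.28, 10.18 and 10.18, with the groups overlapping. Mcm3 read 10.23, 10.12 and 10.15 in wild-type pools against 10.15, 10.22 and 10.04, again mixed.

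Mcm4 was the steadiest of the listed genes, with a range of 0.07 over the 6 pools, and Mcm5, Mcm7, Rrm1 and Rrm2 differed between the groups by 0.01, 0.00, -0.02 and 0.01. Tyms, read at 6.06, 6.15 and 5.71 in wild-type and 5.92, 5.83 and 5.94 in null pools, was the least even of the S phase genes, with a range of 0.44, and its brightest probe set was much nearer the bottom of the range than those of the other 9. Its other 3 probe sets differed by 0.09 to 0.16. Among the other genes of this role with several probe sets, Mcm3 was lower in all 5, by at most 0.06, and Mcm6 in all 3, by at most 0.08. Mcm7 was higher in all 4, by at most 0.03, Rrm2 in all 3, by at most 0.08, and Mcm5 in all 3, by 0.01 and 0.03 in the bright ones and 0.21 in a dim one whose groups overlapped. Mcm2 was higher in its 2 probe sets, by at most 0.06. The probe sets of Mcm4 and Rrm1 went both ways, from -0.00 to 0.04 and from -0.03 to 0.07.

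Genes of the G1/S switch were level too, with cyclin E2 as the outlying value. Ccne1, the other cyclin E gene, read 9.07, 9.10 and 8.94 in wild-type pools and 9.08, 9.06 and 8.95 in null pools, so the groups coincided. Cdk2, the kinase partner of both, read 9.08, 9.14 and 9.09 against 9.17, 9.20 and 9.07. E2f1, which encodes an activator of S phase genes, read 7.08, 7.04 and 7.22 against 7.24, 7.08 and 7.02, with a difference of 0.00 (SE 0.08). For these 3 genes the groups overlapped at the brightest probe set. A dim E2f1 probe set did not overlap, at 3.78, 4.08 and 4.08 against 4.39, 4.09 and 4.31 (difference 0.28, unadjusted limma p 0.0350).

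Ccne2 read 6.89, 6.80 and 6.44 in wild-type pools and 6.36, 6.59 and 6.54 in null pools. Wild-type pools 1 and 2 were the highest and wild-type pool 3 lay among the null pools, for a difference of -0.21 (SE 0.12; limma adjusted p = 0.604). Without wild-type pool 1 the difference of Ccne2 was -0.12, and without wild-type pool 3 it was -0.35. 

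Of the D-type cyclins, Ccnd2 was higher in all 3 null pools, and at their brightest probe sets Ccnd3 and Ccnd1 overlapped between the groups. The differences of the 3 genes were not tested against each other, and their 95% intervals overlap. Ccnd2 read 11.36, 11.53 and 11.51 in wild-type pools and 11.68, 11.60 and 11.70 in null pools. The groups did not overlap, and the difference was 0.20 (SE 0.07, 95% interval 0.03 to 0.36), or 1.14-fold, with an unadjusted limma p of 0.0233 and an adjusted p of 0.436. Groups did not overlap, with the null pools higher, for 9.16% of all genes, and among the 37 cell cycle genes this held for 2, again Ccnd2 and Cdkn1a.

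Ccnd2 was read by 7 probe sets, which share the same 6 RNA pools and are not independent. Of these, 6 were higher in null pools, 5 of them without overlap between the groups, and 4 had an unadjusted p under 0.05. Their differences ran from -0.01 to 0.27, and the probe set at -0.01 was the dimmest of the 7. Without wild-type pool 1, the lowest of the 6, the difference was 0.14, and without null pool 1 or null pool 3 it was 0.19 and 0.17. Adding Xist as a covariate gave 0.12. In each of these 4 fits, and with the replicate block, the unadjusted limma p was no longer under 0.05. Xist was low only in wild-type pools 1 and 3, so the fit with it cannot fully separate Xist from genotype.

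Ccnd1, the D-type cyclin that many growth signals raise, read 10.34, 10.47 and 10.53 in wild-type pools and 10.50, 10.48 and 10.30 in null pools. The groups overlapped fully, for a difference of -0.02 (SE 0.08, 95% interval -0.21 to 0.17), and its other 2 probe sets differed by 0.01 each. Ccnd3 read 10.06, 10.20 and 10.17 against 10.29, 10.21 and 10.19, a difference of 0.08 (SE 0.07; limma adjusted p = 0.722). Its other 2 probe sets were higher as well, by 0.10 and, in a dim one whose groups did not overlap, by 0.19 (4.42, 4.28 and 4.50 against 4.53, 4.62 and 4.64; unadjusted limma p 0.0377). Cdk4, the kinase these cyclins bind, read 11.40, 11.47 and 11.40 against 11.49, 11.46 and 11.45, a difference of 0.04 (SE 0.06). Wild-type pool 1 was the lowest for Ccnd2, Ccnd3 and Cdk4.

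Both CDK inhibitors were higher in null pools, without passing the threshold. Cdkn1a encodes p21, a target of p53 that also rises as muscle cells leave the cycle. It read 7.05, 7.21 and 7.20 in wild-type pools and 7.37, 7.32 and 7.40 in null pools. All null pools were above all wild-type pools, by a mean of 0.21 (SE 0.07, 95% interval 0.05 to 0.36), or 1.16-fold, with an unadjusted limma p of 0.0153 and an adjusted p of 0.411. The second, dimmer Cdkn1a probe set differed by 0.11 and its groups overlapped. Leaving out any 1 pool kept the Cdkn1a difference between 0.16 and 0.24, with the unadjusted p under 0.05 each time. With Xist as a covariate, which goes partly with genotype, the difference was 0.14 and the unadjusted limma p was no longer under 0.05. With wild-type pool 2 alone as control it was 0.15.

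Cdkn1c encodes p57, an imprinted inhibitor known from differentiating muscle and cartilage. It read 11.33, 11.59 and 11.64 in wild-type pools and 11.64, 11.56 and 11.73 in null pools. Wild-type pool 1 was lower than each of the other 5 pools by 0.23 or more, and those 5 overlapped, so the difference of 0.12 (SE 0.09; limma adjusted p = 0.715) was 0.03 without it. The summed level of muscle precursor genes was also lowest in wild-type pool 1. This was not particular to muscle, as the sums of early cartilage, surface ectoderm, macrophage and neuronal markers were lowest there too. Among the muscle precursor genes, however, Pax3 was highest in that pool and Lbx1 was lowest in wild-type pool 2. The 8 markers Pax3, Lbx1, Myf5, Myod1, Myog, Actc1, Chrna1 and Msc were all measured, 7 were higher in null pools with 0 past the threshold, and their summed level out of the log scale ran from 780 to 1312 in wild-type and from 1332 to 1499 in null pools. Unlike Cdkn1c, their sum did not overlap between the groups. Actc1 read 7.34 in wild-type pool 1 against 8.33 to 8.91 elsewhere. Their part in the inhibitor values was not tested.

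**Figure D2:**
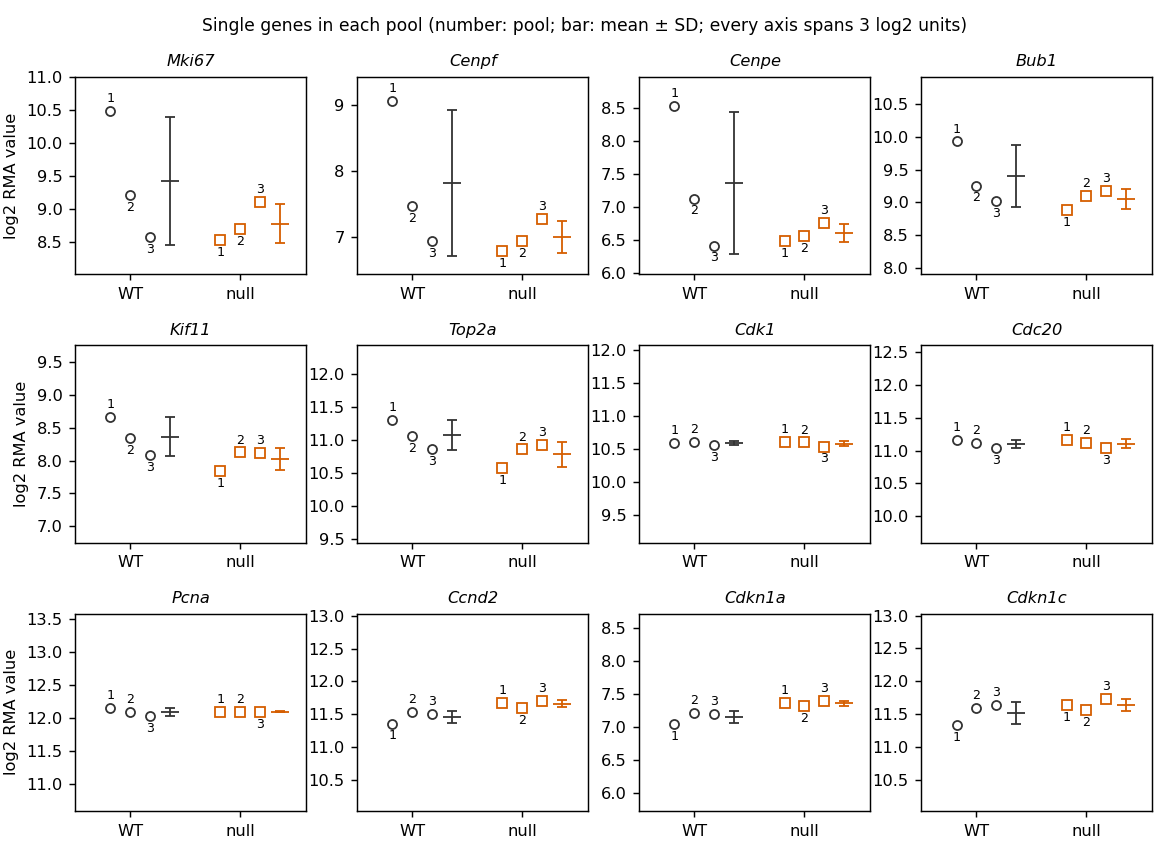
Log2 RMA value (vertical axis, each panel spanning 3 log2 units) of 12 cell cycle genes in the 3 wild-type (WT, circles) and 3 Lmx1b-null (squares) pools, numbered by pool, with the mean and SD of each group at the right of its points. Wild-type pool 1 stands high for Mki67, Cenpf, Cenpe and Bub1, while Cdk1, Cdc20 and Pcna hardly vary and Ccnd2 and Cdkn1a are slightly higher in all null pools.

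Among the genes of G2 and mitosis, 16 of 17 were lower in null pools, with 0 past the threshold and a median of -0.06. The largest differences were in 6 genes and were smaller without wild-type pool 1, at a median of -0.17 against -0.50. In all 6 they were larger without wild-type pool 3. The mitotic genes with a range over the 6 pools above 0.5 were Cenpf (2.27), Cenpe (2.12), Mki67 (1.97), Bub1 (1.04), Kif11 (0.84) and Top2a (0.74). The next, Tpx2, had a range of 0.37 and lies just outside. This set was drawn after its values were seen, and its spread is given as a description.

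Mki67 encodes Ki-67, the protein that coats mitotic chromosomes and is stained for as a marker of cycling cells. It read 10.48, 9.20 and 8.57 in wild-type pools and 8.52, 8.69 and 9.10 in null pools. Wild-type pool 1 stood 1.28 above the next pool, wild-type pool 2. That pool too was above all null pools, and the groups overlapped through wild-type pool 3. The difference of -0.65 (SE 0.42, 95% interval -1.62 to 0.33; limma adjusted p = 0.649) was -0.12 without wild-type pool 1.

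The same pool stood out for both large kinetochore genes. Cenpf, whose product joins the outer kinetochore in G2, read 9.07, 7.46 and 6.93 in wild-type pools and 6.79, 6.93 and 7.27 in null pools. Cenpe, a kinesin that carries chromosomes to the spindle equator, read 8.54, 7.13 and 6.41 in wild-type pools and 6.49, 6.57 and 6.76 in null pools. In both genes wild-type pool 1 was highest, wild-type pool 2 came second and wild-type pool 3 lay with the null pools or below them. The differences of -0.82 (SE 0.47) and -0.76 (SE 0.45) had limma adjusted p of 0.601 and 0.618, and leaving out wild-type pool 1 gave -0.20 and -0.17.

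The other 3 showed the pattern to a lesser degree. Bub1, a kinase of the spindle checkpoint, read 9.93, 9.26 and 9.01 in wild-type pools and 8.88, 9.10 and 9.17 in null pools. Kif11, the motor that pushes spindle poles apart, read 8.67, 8.34 and 8.08 against 7.83, 8.12 and 8.12. Top2a, the topoisomerase that untangles sister chromatids, read 11.31, 11.06 and 10.86 against 10.57, 10.85 and 10.92. In these 3 genes too the highest pool was wild-type pool 1, and for each the groups overlapped through wild-type pool 3.

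Kif11 and Top2a came nearest to a difference between the genotypes, at -0.34 (SE 0.15, unadjusted limma p 0.0535) and -0.30 (SE 0.13, 0.0549), with adjusted p of 0.514 and 0.517. Leaving out wild-type pool 1 gave -0.19 and -0.18, and the Bub1 difference of -0.35 (SE 0.21) became -0.09. Leaving out wild-type pool 3 instead took the 6 genes to between -0.40 (Top2a) and -1.27 (Cenpf). Null pool 1 was the lowest of all pools for Mki67, Cenpf, Bub1, Kif11 and Top2a. Over the 3 wild-type pools the median SD of the 6 genes was 0.72, and over the 3 null pools 0.18, where the medians of all genes were 0.09 and 0.08.

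Probe sets of 1 gene differed in how far they showed this. All 3 Kif11 probe sets were lower in null pools, by 0.31 to 0.41, with wild-type pool 1 highest in each, and the dimmer Cenpe probe set read 6.72 in wild-type pool 1 against 3.78 to 4.84 elsewhere. The other 2 Cenpf probe sets, both dim, differed by -0.11 and -0.47, and the other 2 Top2a ones by -0.05 and -0.11. The dimmer of the 2 Bub1 probe sets read 5.56, 6.26 and 5.57 in wild-type pools and 4.78, 4.96 and 4.44 in null pools. There the groups did not overlap and wild-type pool 2 was highest, with a difference of -1.07 (SE 0.20; limma adjusted p = 0.160), the largest among the 93 probe sets. Across all genes the groups did not overlap, with null pools lower, in 5.44%, and among the 37 cell cycle genes, at 1 probe set each, in 0.

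**Figure D3:**
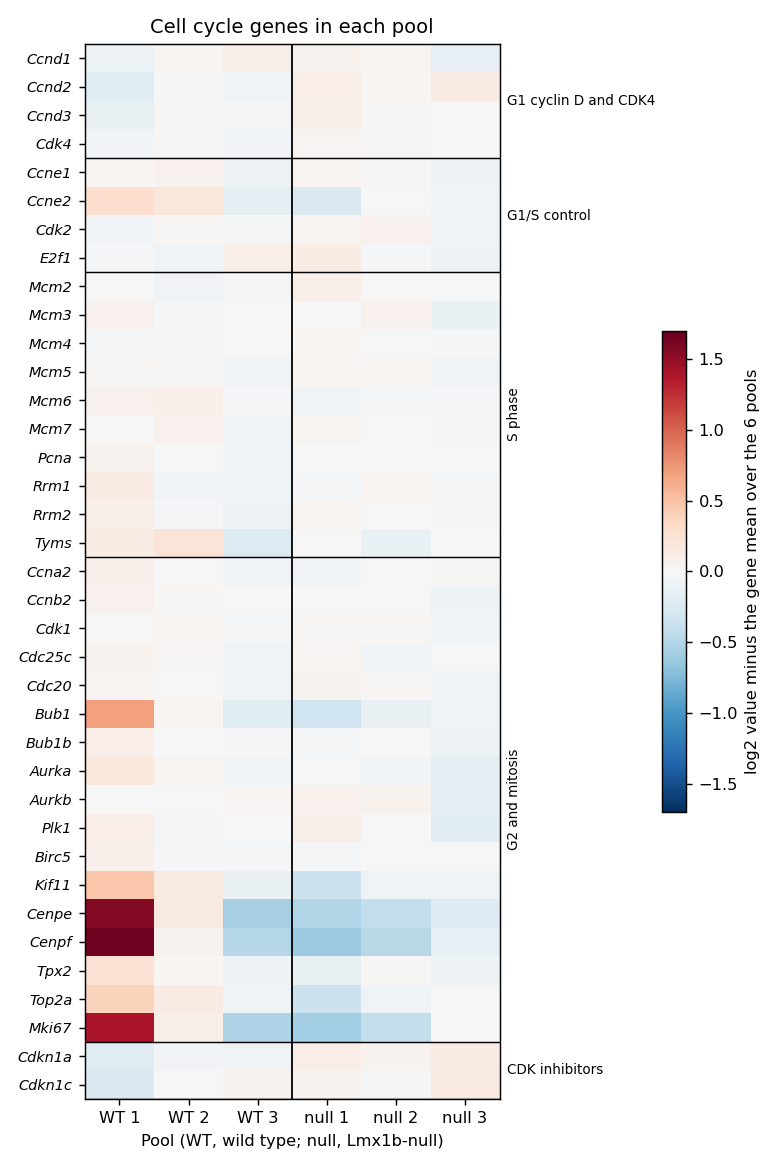
Log2 value minus the mean of the gene over the 6 pools (colour) for the 37 cell cycle genes (rows, by role) in the 3 wild-type (WT) and 3 Lmx1b-null pools (columns). Deep red marks Cenpe, Cenpf and Mki67 in wild-type pool 1, with Bub1, Kif11 and Top2a paler, whereas the S phase rows are nearly blank.

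The other 11 mitotic genes are those left once the 6 uneven ones are set aside, so their smaller spread follows from that choice. Their differences ran from -0.13 to 0.00 with a median of -0.03, 10 of the 11 were lower, and 5 of the 11 had a range over the 6 pools above 0.2. Cdk1, the kinase that drives entry into mitosis, read 10.58, 10.61 and 10.55 in wild-type pools and 10.60, 10.60 and 10.53 in null pools. The groups coincided (difference -0.00, SE 0.06, 95% interval -0.14 to 0.13). Its cyclin partners Ccna2 and Ccnb2 differed by -0.03 and -0.05. Cdc25c, the phosphatase that activates CDK1, and Cdc20, which turns on the anaphase-promoting complex, differed by -0.01 and 0.00, the latter being the only mitotic gene of the 17 that was not lower.

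The remaining members act on the spindle. Plk1 and Aurka, kinases of the spindle poles, differed by -0.05 and -0.12. Aurkb and Birc5 (survivin), which belong to the chromosomal passenger complex, differed by -0.03 and -0.02. Bub1b, a checkpoint protein, and Tpx2, which activates AURKA, differed by -0.06 and -0.13. A second bright Bub1b probe set did not overlap between the groups. It read 9.76, 9.66 and 9.66 in wild-type pools and 9.60, 9.58 and 9.58 in null pools (difference -0.11). At the brightest probe sets, none of these 11 genes had an adjusted p under 0.637 in the limma fit, and their 95% intervals together ran from -0.34 to 0.15.

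Read by pool, the roles stood in different orders. In wild-type pool 1 the median deviation from the gene means was 0.12 for the mitotic genes and 0.07 for the S phase genes, but -0.11 for the cyclin D and Cdk4 group and -0.23 for the inhibitors. Null pool 3 had -0.08 for the mitotic genes and 0.14 for the inhibitors. All genes together lay between -0.03 and 0.02 in every pool. Wild-type pool 1 was the highest of the 6 pools for 14 of 17 mitotic genes (82.4%) and for 4 of 10 S phase genes (40.0%), against 15.6% of all genes. The genes of a role share their RNA pools, so no test is given.

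**Figure D4:**
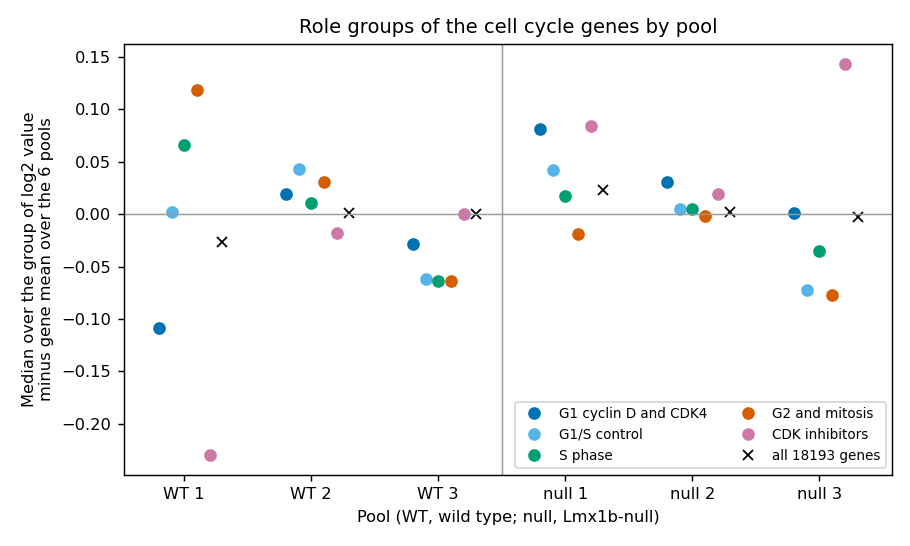
Median over the genes of a role of the log2 value minus the gene mean over the 6 pools (vertical axis), for 5 roles of cell cycle genes and for all 18193 genes (crosses), in each wild-type (WT) and Lmx1b-null pool. In wild-type pool 1 the mitotic genes are at 0.12 and the inhibitors at -0.23, while the S phase genes stay between -0.06 and 0.07 in all pools.

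A wider list of 119 further cell cycle genes, of which 115 were measured, was read in the same way. None passed the threshold in the limma fit (smallest adjusted p = 0.330), 8 of 115 had an unadjusted p under 0.05, against 9.80% of all genes, and the median difference was -0.02 with 48 higher and 67 lower. Without wild-type pool 1 that median was 0.01. Origin licensing and firing genes (17 measured, median -0.04) and replication fork genes (19, median -0.01) held no gene with an unadjusted p under 0.05. The smallest limma p values belonged to Orc3 (-0.14) and Gins4 (-0.10) in the first list, and to Prim2 (-0.19) and Rfc1 (-0.19) in the second. The 6 genes of nucleotide supply and chromatin copying had a median of 0.03, with Chaf1b at 0.08 and Dnmt1 at 0.06.

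Genes of the RB, E2F and MYC group were higher in 14 of 20, with a median of 0.02. Of all genes 57.0% were higher, also with a median of 0.02. The smallest p values there belonged to E2f2, an E2F activator, and Cdk6, the second kinase partner of D-type cyclins. E2f2 read 6.34, 6.54 and 6.48 in wild-type pools and 6.70, 6.77 and 6.59 in null pools (difference 0.23, limma adjusted p = 0.419). Cdk6 read 8.01, 8.08 and 8.14 against 8.29, 8.32 and 8.18 (difference 0.18, adjusted p = 0.448). As with Ccnd2, all null pools were above all wild-type pools in both, and without wild-type pool 1 the differences were 0.18 and 0.15. In this group the genotypes did not overlap for 5 of 20 genes, 3 higher and 2 lower in null pools. The shares of all genes were 9.16% higher and 5.44% lower. In the whole wider list 14 of 115 did not overlap, 5 higher and 9 lower.

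Kinetochore and checkpoint genes were lower in 14 of 15, with a median of -0.06, and those of the spindle, condensin and cytokinesis in 18 of 28, with a median of -0.05. Without wild-type pool 1 these medians were -0.01 and -0.02. Kif23, a kinesin of the central spindle, read 8.88, 8.77 and 8.57 in wild-type pools and 8.30, 8.41 and 8.50 in null pools (difference -0.34, limma adjusted p = 0.330). Cenpk, a kinetochore subunit, read 8.80, 8.62 and 8.20 against 8.01, 8.16 and 7.98 (difference -0.49, adjusted p = 0.362). In both the groups did not overlap, and without wild-type pool 1 the differences were -0.27 and -0.36. Groups did not overlap, with null pools lower, in 2 of 15 kinetochore and 3 of 28 spindle genes, against 5.44% of all genes. Nuf2, of the NDC80 complex, was at -0.36 and Pttg1, the anaphase inhibitor securin, at 0.26, against the direction of its group.

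Wild-type pool 1 was the highest pool for 12 of the 15 kinetochore genes and 20 of the 28 spindle and condensin genes. It was also the highest for 10 of the 17 origin genes and 9 of the 19 replication fork genes. In the whole wider list this held for 59 of 115 genes (51.3%), against 15.6% of all genes. It exceeded the mean of wild-type pools 2 and 3 by over 0.5 in 4 of the 37 listed genes (10.8%: Mki67, Cenpf, Cenpe and Bub1) and in 6 of the 115 further ones (5.22%), against 1.03% of all genes. The 6, named after their values were seen, were the condensin genes Smc4 (1.03), Smc2 (0.75) and Ncapg (0.66), the kinesin gene Kif18a (0.88), the polymerase gene Pola1 (0.60) and Nuf2 (0.54). Without wild-type pool 1, Smc4 was at -0.13 and Pola1 at 0.00 between the genotypes.

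Among the further inhibitors and p53 targets, 10 genes were measured, 5 higher and 5 lower, with a median of 0.02. Cdkn2a was at 0.21 but read 3.10 and 3.31 on average in the groups, near the bottom of the range, and Sesn2 was at 0.13. Neither passed the threshold (limma adjusted p = 0.529 and 0.606).

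Other cell types and states also varied between the pools. Endothelial markers were all lower in null pools (8 of 8 measured, 0 past the threshold), with sums of 928 to 1045 in wild-type and 865 to 875 in null pools, and early cartilage markers were lower in 7 of 8, with Cnmd past the threshold and sums of 2877 to 3982 and 3090 to 3355. Surface ectoderm was higher in 7 of 8 (median 0.10, but -0.01 without wild-type pool 1), with sums of 718 to 847 and 797 to 878, and erythroid markers in 4 of 6 measured, at 18741 to 20186 and 19238 to 21571. Macrophage sums ran from 247 to 284 and 268 to 290, and neuronal ones from 473 to 564 and 547 to 599. Hypoxia and glycolysis genes, all 12 lower in null pools, had a median deviation of 0.69 in wild-type pool 3 and of -0.20 to -0.04 elsewhere. The part of these cells and states in the cell cycle values was not tested.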

How the data were processed

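Expression was measured on 1 array for each of 6 pools. The authors deposited log2 values for each probe set on each array. RMA, a method that corrects background, equalizes arrays by quantiles and sums up probes, is named by the submitters' processing notes, without a version. The base of the logarithm was inferred from the range of the values. Normalization of this kind would hide a shift of most transcripts, and values near the bottom of the range compress differences. Array number, at 3 pools a group, limits the precision: the median SE over genes was 0.08.

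Of 45101 probe sets, 64 controls were left out. Of the rest, 34945 carried 1 gene symbol in the platform annotation, 932 several and 9160 none. The probe set with the highest mean was kept per gene, giving 18193 genes. Null and wild-type pools were compared with limma 3.58.1 (lmFit and eBayes, R 4.3.3, two-sided, Benjamini-Hochberg over all genes or all probe sets, threshold 0.05). An exact permutation test of 3 pools against 3 cannot go below 0.1. The scripts were tested on simulated data. Promoters came from a RefSeq table.

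The members, roles and lists were chosen with earlier results of these data known. All members are named; pool values are given for 8 set genes and for up to 4 genes per role with the smallest p. Of the further genes the 2 with the smallest p per list are named. Bub1, the probe sets, Hbb-y, Prrx1, Actc1, Cnmd and the 6 genes high in wild-type pool 1 go beyond this rule and were named after their values were seen.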

Additional observations from a re-analysis of the deposited data

How the results depend on the processing

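No listed gene passed the threshold under any of the 18 alternatives, and the smallest adjusted p of any was 0.132, for Bub1 averaged over its probe sets. Of 665 recomputed differences, 69 changed sign, all in 19 genes whose difference was smaller than its SE. The other 18 genes kept their direction. Some settings, among them the intensity trend, the replicate block and the adjusted p threshold of 0.1, leave the difference itself unchanged. No sign could change in those. Against 2 listed genes with an unadjusted p under 0.05, there were 4 with an intensity trend, with array weights and with median centring. There were 1 with the replicate block and 0 with Xist as a covariate, and 1 to 10 with 1 pool left out, the 10 being without wild-type pool 3. The fit of wild-type pool 2 alone against the null pools was a choice made after seeing the data. Its single wild-type pool takes its spread from the null ones, so its unadjusted p values are not counted here. The median difference of the mitotic genes ran from -0.10 to -0.03 with 1 pool left out, that of the inhibitors from 0.09 to 0.21, that of S phase from -0.03 to 0.02, that of cyclin D with Cdk4 from 0.04 to 0.09 and that of G1/S from -0.05 to 0.04.

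Over all genes, 19 were called, and 36 with an intensity trend or array weights, 9 with the replicate block, 5 with Xist, 11 with wild-type pool 2 alone, 47 at an adjusted p under 0.1 and 4 to 37 with 1 pool left out. For probe sets the count was 38, and 94, 69, 14, 9, 10 and 99 in the same settings, 20 among those with a mean of at least 5, and 13 to 38 with 1 pool left out. Deviations of pools with the same number correlated at -0.256, -0.0948 and -0.154, which gives no sign of pairing by number. With 3 pools a group these values cannot settle whether the number pairs pools, and the block says little. The cause of these differences was not tested.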
